A study of Peromyscus maniculatus and Peromyscus polionotus and Peromyscus maniculatus x Peromyscus polionotus with 18 samples.

Results

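In first-generation (F1) hybrids of the deer mouse *P. maniculatus* and the oldfield mouse *P. polionotus*, the RNA made from the polionotus copy of each gene was compared with the RNA made from the maniculatus copy in the same brain. All genes with a mean of at least 20 allele-assigned counts per animal, summed over both alleles, were included; all 11928 genes of the hybrid table met this minimum, set beside 20731 named genes in the table of the parental species. The 6 hybrids were males aged 50 to 80 days that had been through 2 pretest trials in sand-filled enclosures. They were then assigned at random to a burrowing trial (3 animals) or a control trial (3 animals), and their whole brains were taken at its end. The other 12 of the 18 libraries came from males of the parental species, 3 per species and trial, treated the same way. The labels write the hybrid as maniculatus x polionotus, and the species of the mother was not given in the sources used here. Replicate numbers name libraries, each treated as 1 animal.

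Both alleles of a hybrid gene sit in the same nucleus and meet the same transcription factors, hormones and behaviour, so a difference between them is commonly read as the sum of what is built into each copy: its promoter, enhancers, splice sites and RNA stability signals, and any parental imprint. In rodents that differ in burrow building, such cis differences have been used to look for genes that evolved between species. Male mammals carry a single X, inherited from the mother, and imprinted genes are expressed from 1 parental copy.

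The 6 animals had 11415175 to 53906964 allele-assigned counts, with medians of 410 to 2197 counts per gene. The deepest library, control replicate 3, and both of the shallowest belonged to the control trial. Summed marker genes of neurons were at 4298 to 5808 counts on the CPM scale, that is relative to the library total (8 of 8 markers in the table), of oligodendrocytes at 2959 to 4969 (4 of 6), of astrocytes at 1011 to 1186 (3 of 6), of microglia at 175 to 219 (6 of 6), of brain endothelium at 323 to 541 (6 of 6) and of choroid plexus at 88.6 to 138 (4 of 6). Pituitary markers were at 1.31 to 7.21 (1 of 8), blood markers at 1.51 to 2.28 (1 of 7), muscle markers at 5.38 to 8.89 (3 of 7), and olfactory epithelium markers at 170.6 to 204 (5 of 6, among them *Gnal* and *Adcy3*, which brain also expresses). None of 6 pineal and retina markers was in the table. Each share below is a ratio of the alleles within 1 brain; where levels in TPM are given, fewer cells of a type and less RNA per cell cannot be told apart. Burrowing replicate 2 stood apart from the other 5 animals at many single genes, and values without it are given where they differ.

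The polionotus copies gave slightly more of the counts. Their share of all allele-assigned counts was 52.8% ± 0.183 (SD, n = 6 animals) and ranged from 52.6% in control replicate 1 to 53.1% in burrowing replicate 1. It was above 50% in 6 of 6 animals (exact sign-flip permutation test, two-sided, p = 0.03125, the smallest p that 6 animals allow). The median gene had a share of 51.3% ± 0.0913 (SD, n = 6). Without the 100 genes with the highest counts the share of all counts was 53.1%. Wilson 95% intervals of a single animal's share, which cover counting error only, were narrow beside these values (53.11% to 53.14% in burrowing replicate 1).

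An allele difference, on the log2 scale polionotus over maniculatus, passed the test in 6641 of 11928 genes (55.7%; edgeR quasi-likelihood test with the animal as a block, Benjamini-Hochberg adjusted p under 0.05). The polionotus allele was higher in 4074 (34.2%) and the maniculatus allele in 2567 (21.5%), but this balance depended on the scaling: TMM scaling gave 2786 (23.4%) and 4215 (35.3%), and centring on the median gene gave 3462 (29.0%) and 3257 (27.3%). TMM moved the median of all genes from 0.11 by -0.18. Of the 5380 genes called under both the first scaling and TMM, 27 changed direction. Most differences were small. The median absolute difference was 0.64 among called genes, and 2084 called genes (17.5% of all genes) exceeded 1 on the log2 scale, which is 2-fold; of these, 1546 were higher from the polionotus allele and 538 from the maniculatus allele. Beyond 3 on the log2 scale were 109 and 71 genes.

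By mean share over the 6 animals, 7675 genes (64.3%) lay between 40% and 60%, 67 genes gave over 90% of their counts from the polionotus allele and 53 gave under 10%. In 5804 called genes (48.7%) all 6 animals lay on the same side of 50%; 6322 genes (53.0%) did so whether called or not. Among the 5287 genes that were not called, 3652 had a mean share within 45% to 55%. The share of a typical gene varied by an SD of 3.89 percentage points between animals. In 3296 genes (27.6%) the highest and lowest animal differed by over 20 points, which held for 17.3% of the called genes. Depth mattered for the size and the number of calls: with genes split into quartiles by counts, 49.9% of the lowest quartile were called, with a median absolute difference of 0.52 over all its genes, and 58.9% of the highest, with 0.26.

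**Figure D1:**
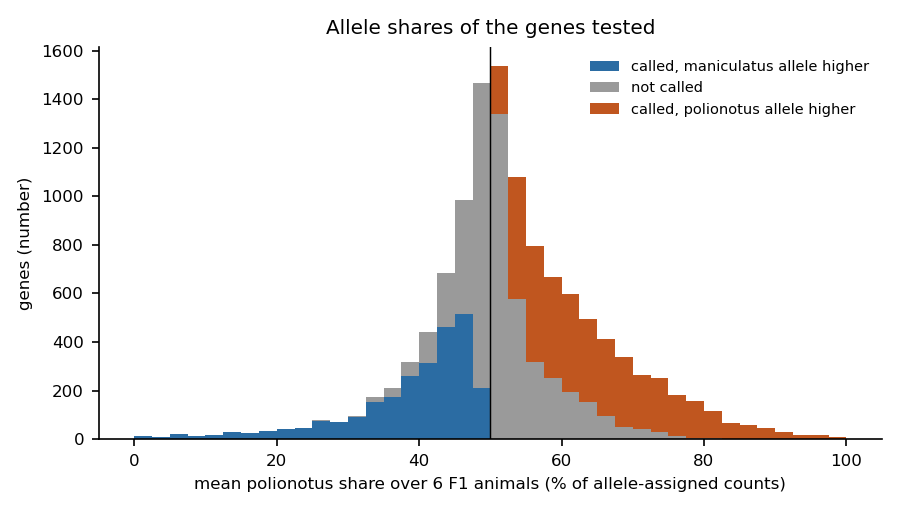
Number of genes (vertical axis) by mean polionotus share over the 6 F1 animals (horizontal axis, percent of allele-assigned counts), coloured by call over both trials. Most genes lie between 40% and 60%, and called genes fill both tails, with more of them on the polionotus side under this scaling; TMM scaling reverses that balance.

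Among genes with at least 100 counts and the same direction in all animals, the largest polionotus bias was that of *Ndrg2*, an astrocyte-enriched gene of the NDRG family. Its share was 99.7% at the lowest, 99.8% at the median and 99.8% at the highest, a log2 difference of 8.59 (SE 0.102, edgeR adjusted p = 1.17e-07). The counts behind it were 5470 to 22887 on the polionotus allele and 13 to 72 on the maniculatus allele. In the parental brains, which are other animals, the level of *Ndrg2* in *P. polionotus* was 959 ± 180 TPM and in *P. maniculatus* 967 ± 84.4 TPM (SD, n = 6 each), and the species difference did not pass the limma test (adjusted p = 0.86).

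Near-complete polionotus bias was also found in *Rilpl1*, a Rab effector at primary cilia (98.0% ± 1.61), *Cttn*, the actin-binding protein cortactin (98.0% ± 0.612), *Copz1*, a subunit of the COPI vesicle coat (97.6% ± 1.08), and *Cacng7*, an auxiliary subunit of AMPA receptors and calcium channels (97.6% ± 0.721; SD, n = 6 for each). *Casc4* (97.6% ± 0.549) and *Maneal*, an endomannosidase-like gene (97.5% ± 0.539), were alike. In *Timm10*, an import chaperone of the mitochondrial intermembrane space, 5 animals had shares of 99.0% to 99.5%, and burrowing replicate 2 had 53.4%. Its log2 difference was 6.24 with that animal and 7.19 without it.

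The largest maniculatus biases were partly on the X, of which males carry a single copy. *Syp*, the synaptic vesicle protein synaptophysin, had 22174 to 69798 counts on the maniculatus allele and 3 to 11 on the polionotus allele per animal (share 0.00738% to 0.0223%, log2 difference -12.68). *Gpm6b*, a neuronal and myelin membrane glycoprotein (0.0238% ± 0.00745), *Gprasp1*, a sorting protein for G protein-coupled receptors (0.0298% ± 0.00692), *Ubl4a* (0.344% ± 0.112) and *Med12*, a subunit of the Mediator complex (0.387% ± 0.180), are X genes of the same kind (SD, n = 6 for each). Autosomal genes reached similar extremes. *Braf*, a kinase of the MAPK cascade on chromosome 3, had a share of 0.239% ± 0.0872 with a log2 difference of -8.81. *Dnajc12*, a co-chaperone of aromatic amino acid hydroxylases on chromosome 21, had 0.475% ± 0.195 and -7.69, and *Fopnl*, a centrosomal gene, had 1.51% ± 0.380 and -6.06.

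These 16 genes differed in what the parental brains showed, and the largest species difference was that of *Dnajc12*. *P. polionotus* brains had 10.8 ± 1.83 TPM of *Dnajc12* and *P. maniculatus* brains 30.7 ± 2.18 TPM (SD, n = 6 each), a difference of -1.44 on the log2(TPM + 1) scale (limma adjusted p = 3.2e-07). For *Braf* the species difference was -0.22, and for the X genes *Syp* and *Med12* it was 0.08 and 0.49. Males carry a single X, so the shares of X genes cannot be read as a difference between copies and set against a species difference. *Casc4* and *Maneal*, nearly all from the polionotus allele in hybrids, were lower in *P. polionotus* brains, by -0.42 and -0.24 on the same scale. The other polionotus-biased genes had small species differences: *Ndrg2* -0.03, *Timm10* 0.03, *Rilpl1* 0.01, *Cttn* 0.22, *Copz1* 0.11 and *Cacng7* 0.11. The value was -0.10 for *Fopnl*, and for the X genes *Gpm6b*, *Gprasp1* and *Ubl4a* it was -0.13, 0.17 and -0.26.

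**Figure D2:**
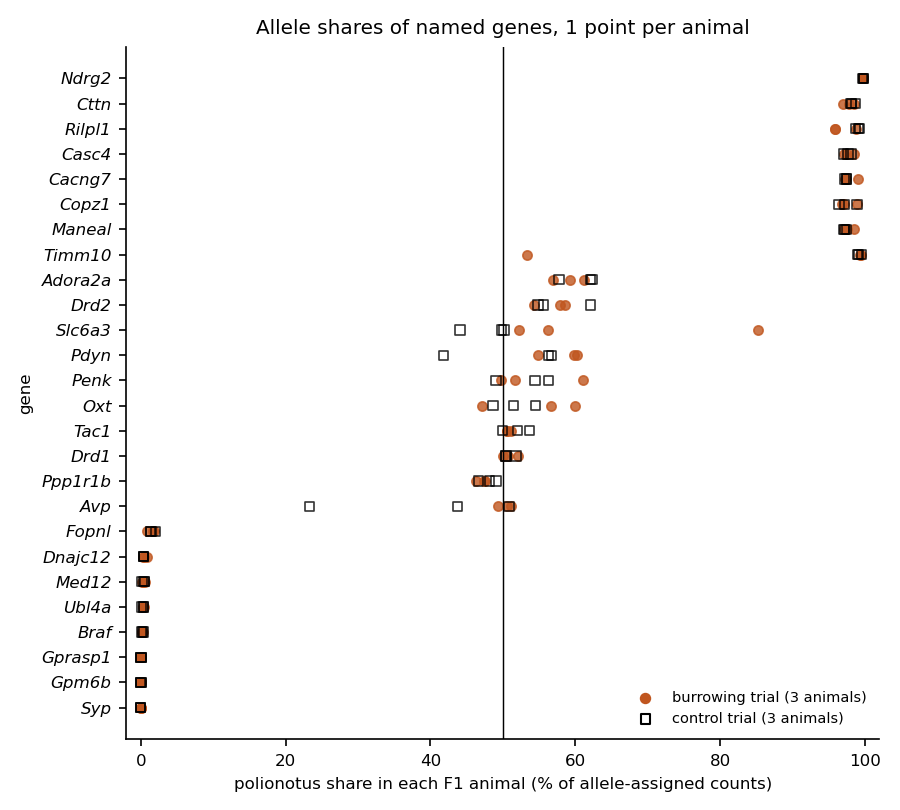
Polionotus share in each F1 animal (horizontal axis, percent of allele-assigned counts) for the 16 genes with the largest allele differences and the 10 measured genes of a preset list of neuropeptide, dopamine and striatal genes (vertical axis). Filled circles are burrowing animals and open squares control animals; single animals stand apart in *Timm10*, *Slc6a3*, *Pdyn* and *Avp*.

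A preset list of neuropeptide, dopamine and striatal genes was followed individually. *Adora2a*, the adenosine receptor of indirect-pathway striatal neurons, had polionotus shares of 56.9% at the lowest, 60.2% at the median and 62.3% at the highest. The log2 difference was 0.58 (SE 0.0609, edgeR adjusted p = 0.000348), and all 6 animals lay above 50%. *P. polionotus* brains also had more *Adora2a* (37.9 ± 2.84 against 19.2 ± 4.01 TPM, SD, n = 6 each; 0.96 on the log2(TPM + 1) scale, limma adjusted p = 8.7e-05). *Drd2*, the dopamine receptor of the same neurons, had shares of 54.3%, 56.8% and 62.1% (log2 difference 0.42, adjusted p = 0.00236), while its species difference of 0.10 did not pass the test (limma adjusted p = 0.43).

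*Drd1*, the dopamine receptor of direct-pathway neurons, showed no such difference between alleles. Its shares lay between 50.1% and 52.1%, the log2 difference was 0.05 (SE 0.0366, edgeR adjusted p = 0.269; -0.13 under TMM), and in the parental brains it was higher in *P. polionotus* (171 ± 10.4 against 95.4 ± 14.7 TPM, SD, n = 6 each; 0.85, limma adjusted p = 2.8e-05). *Ppp1r1b*, which encodes the dopamine-regulated phosphatase inhibitor DARPP-32, leaned to the maniculatus allele in all 6 animals (46.3% to 49.1%; log2 difference -0.14, edgeR adjusted p = 0.00529), yet was higher in *P. polionotus* brains (0.38, limma adjusted p = 0.00088). The calls for *Adora2a* and *Ppp1r1b* were lost when the animal was not used as a block (edgeR adjusted p = 0.110 and 0.459).

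None of the 5 measured peptide genes on that list passed the allele test in edgeR (0 at an unadjusted p under 0.05, 0 called by DESeq2). *Avp*, which encodes vasopressin, had shares of 43.8% to 51.1% in 5 animals and 23.3% in control replicate 2. Its log2 difference was -0.28 (SE 0.248, edgeR adjusted p = 0.362), or -0.04 without that animal. In the parental species it was lower in *P. polionotus* (25.2 ± 7.24 against 78.1 ± 14.0 TPM, SD, n = 6 each; -1.62 on the log2(TPM + 1) scale). *Oxt*, encoding oxytocin, had a mean share of 53.1% ± 4.91 (0.17 on the log2 scale; -0.01 under TMM), *Penk*, encoding enkephalins, 53.7% ± 4.54 (0.22) and *Tac1*, encoding substance P, 51.3% ± 1.34 (0.08; -0.10 under TMM). *Pdyn*, encoding dynorphins, lay at 54.8% to 60.2% in 5 animals and at 41.9% in control replicate 2. Its log2 difference of 0.29 (adjusted p = 0.131) became 0.44 and passed the edgeR test without that animal (adjusted p = 0.0048). *Slc6a3*, the dopamine transporter, lay at 44.1% to 56.3% in 5 animals and at 85.3% in burrowing replicate 3 (log2 difference 0.40, adjusted p = 0.399; 0.04 without that animal).

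Gene lists of transmitter systems, cell types and housekeeping machinery were then described by their called members, to be read against the 34.2% polionotus-higher and 21.5% maniculatus-higher calls and the median of 0.11 over all genes. No list was tested as a set. Of the list members named below, *Gad1*, *Grin1*, *Egr1*, *Fos*, *Fosl2*, *Pdgfra*, *Aqp4*, *Htr1f*, *Cacnb3*, *Arntl* and *Rpl3* lost their calls when the animal was not used as a block (edgeR adjusted p = 0.058 to 0.75). Of 115 measured genes of locomotor behaviour, 30 were higher from the polionotus and 27 from the maniculatus allele (22 and 51 under TMM), with a median of 0.01. The smallest p in each direction belonged to *Scn8a*, the voltage-gated sodium channel of axon initial segments (80.8% ± 0.642, log2 difference 2.08), and *Atp7a*, a copper transporter (8.45% ± 0.535, -3.44). *Atp7a* is X-linked and males carry a single X, so its share cannot be read as a difference between copies in the same brain. *Atp2b2*, a plasma membrane calcium pump, had 63.9% ± 1.36. Of the 103 members also tested in the parental brains, 17 (16.5%) were called in both with the same direction and 1 with the opposite one, against 26.5% and 5.57% of all 9973 matched genes.

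Among 27 genes of striatal medium spiny neurons, 8 and 5 were called (polionotus higher first here and below; 6 and 7 under TMM), with a median of 0.09. *Ppp1r16b* was at 76.8% ± 1.56 and *Rasd2*, the striatal GTPase Rhes, at 71.5% ± 2.52. *Rgs9*, a regulator of G protein signalling, lay on the maniculatus side in every animal (41.0% to 45.7%). In the parental brains *Rgs9* was higher in *P. polionotus* (0.53 on the log2(TPM + 1) scale, limma adjusted p = 0.00057). The dopamine and noradrenaline list of 21 genes had 5 and 2 calls (2 and 2 after centring, 2 and 3 under TMM). *Adra2a*, the alpha-2A adrenergic receptor, was on the maniculatus side (40.7% ± 0.938). Of 11 serotonin genes 1 was called in each direction, *Gata3* (63.6% ± 2.67) and the receptor *Htr1f* (43.7% to 50.8%). The call for *Htr1f* was lost in 5 of the 6 fits that left out 1 animal, that is without any of the 6 except control replicate 1 (edgeR adjusted p = 0.072 to 0.113).

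Receptors for neuropeptides were called in 5 and 11 of 32 genes (4 and 14 under TMM), with a median of 0.01. *Oxtr*, the oxytocin receptor, was low in counts (mean 38.8 per animal) but gave 69.6% at the lowest, 81.6% at the median and 88.2% at the highest from the polionotus allele, a log2 difference of 2.17 (edgeR adjusted p = 0.000478). *Crhr1*, the receptor for corticotropin-releasing hormone, had 54.1%, 58.8% and 70.0% (0.61, adjusted p = 0.00683). Both were also higher in *P. polionotus* brains, *Oxtr* by 1.08 and *Crhr1* by 1.42 on the log2(TPM + 1) scale. *Oprm1*, the mu opioid receptor (38.3% ± 0.869), and *Oprl1*, the nociceptin receptor (46.4% ± 0.548), were on the maniculatus side and lower in *P. polionotus* brains (-0.16 and -0.52). *Mchr1*, a receptor for melanin-concentrating hormone, was at 59.4% ± 1.78. Of 27 receptors tested in both, 10 (37.0%) were called in both with the same direction and 0 with opposite directions. Over all matched genes these shares were 26.5% and 5.57%. The counts of same and opposite directions were 4 and 3 of 24 GABA and glycine genes and 1 and 2 of 26 immediate early genes. They were 7 and 3 of 22 oligodendrocyte genes and 3 and 3 of 9 precursor genes. Differences between lists were not tested.

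Of 20 genes of neuropeptides and their granules, 3 and 5 were called (2 and 9 under TMM). *Nts*, encoding neurotensin, had 85.4% to 87.7% in 5 animals and 58.3% in burrowing replicate 2 (log2 difference 2.38, or 2.74 without it). *Scg2*, a granin of secretory granules, had 41.9% ± 1.16. Glutamate receptors had 11 and 8 calls among 33 genes (6 and 15 under TMM). *Grin1*, the obligatory NMDA receptor subunit, leaned to polionotus (58.6% ± 2.89) and *Gria1*, an AMPA receptor subunit, to maniculatus (44.7% ± 1.67).

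GABA and glycine genes had 10 and 4 calls among 24 (10 and 9 under TMM) and a median of 0.34. Those with a higher polionotus allele included the GABA-A receptor subunit genes *Gabra2*, *Gabra6*, *Gabrb1*, *Gabrb2*, *Gabrg1* and *Gabrd*. *Gabrd*, the delta subunit of extrasynaptic receptors, had shares of 76.2%, 79.1% and 83.8% at the lowest, median and highest (log2 difference 1.96, edgeR adjusted p = 7.98e-06). The enzymes of GABA synthesis leaned in opposite directions, *Gad2* to polionotus (59.6% ± 1.25) and *Gad1* to maniculatus (47.8% ± 0.766). *Gad1* was also lower in *P. polionotus* brains (-0.31 on the log2(TPM + 1) scale).

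Among ion channels, potassium channels had 15 and 10 calls of 52 (12 and 20 under TMM) and sodium and calcium channels 9 and 1 of 22 (4 and 6 under TMM). *Kcnk2*, a two-pore background channel, was at 74.3% ± 1.10. *Kcnip3*, the calcium sensor KChIP3, was at 25.1% to 29.0% in 5 animals and at 36.7% in burrowing replicate 2. Under the first scaling, the 1 sodium or calcium channel subunit with a higher maniculatus allele was *Cacnb3* (48.9% ± 0.441). That call was lost without burrowing replicate 1, burrowing replicate 3 or control replicate 3 (edgeR adjusted p = 0.068 to 0.088). Axon guidance genes had 16 and 12 calls of 50 (12 and 18 under TMM) and a median of 0.23, with *Plxna4*, a semaphorin receptor, at 77.8% ± 1.35 and the semaphorin *Sema5a* at 42.1% ± 1.50. *Cnr1*, the cannabinoid receptor of axon terminals, was at 67.6% ± 1.41, and *Sncg*, gamma-synuclein, at 22.7% ± 2.79.

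Immediate early genes, which neurons switch on after activity, had 11 and 2 calls among 27 (10 and 7 under TMM) and a median of 0.49. *Nr4a1*, an orphan nuclear receptor, gave 86.3% at the lowest, 90.8% at the median and 93.2% at the highest from the polionotus allele (log2 difference 3.20, edgeR adjusted p = 2.35e-05). The scaffold gene *Homer1* was at 69.0% ± 0.839, the transcription factor *Egr1* at 60.8% ± 3.20 and *Fos* at 61.5% ± 6.30. For *Fos*, 5 animals lay at 60.4% to 67.6% and burrowing replicate 2 at 49.6%. *Fosl2*, a Fos-related factor, was on the maniculatus side (41.7% ± 1.78). In the parental brains none of *Nr4a1*, *Homer1*, *Egr1* and *Fos* differed between species by the limma test (adjusted p = 0.39, 0.65, 0.26 and 0.71). Clock genes had 6 and 3 calls of 22 (5 and 10 under TMM). The period gene *Per3* (66.8% ± 1.09) and the cryptochrome *Cry2* (72.8% ± 2.36) were on the polionotus side and also higher in *P. polionotus* brains (0.64 and 0.29 on the log2(TPM + 1) scale). *Arntl*, which encodes the clock activator BMAL1, was at 48.2% ± 0.305 and lost its call without control replicate 3 (edgeR adjusted p = 0.0593).

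Oligodendrocyte and myelin genes had 4 and 10 calls of 23 (3 and 11 after centring, 2 and 13 under TMM) and a median of -0.17. *Plekhb1* (32.9% ± 2.20), the tight junction gene *Cldn11* (37.7% ± 2.89) and *Mobp*, a myelin protein gene (40.5% ± 1.41), were on the maniculatus side and lower in *P. polionotus* brains (-0.32, -0.31 and -0.53 on the log2(TPM + 1) scale). *Mal*, a myelin proteolipid gene, went the other way among alleles (85.5% ± 2.06). Oligodendrocyte precursor genes had 5 and 4 calls of 11 (3 and 4 under TMM), with the receptor phosphatase *Ptprz1* at 72.2% ± 0.410 and the growth factor receptor *Pdgfra* at 46.2% ± 0.781.

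Astrocyte genes had 5 and 5 calls of 21 (4 and 8 under TMM), with the water channel *Aqp4* at 44.8% ± 0.551. Microglial and immune genes had 6 and 4 of 23 (5 and 5 under TMM), with the transcription factor *Irf8* at 37.2% ± 5.23. Endothelial and pericyte genes had 11 and 5 of 25 (8 and 5 under TMM) and a median of 0.39. *Vwf*, von Willebrand factor (73.1% ± 1.90), and *Mfsd2a*, a lipid transporter of the blood-brain barrier (67.8% ± 0.963), were on the polionotus side and *Cldn5*, its main claudin (38.9% ± 1.66), on the maniculatus side. Choroid plexus and ependyma genes had 5 and 3 calls of 15 (2 and 5 after centring, 1 and 6 under TMM). None of 6 hindbrain and spinal cord patterning genes was called by edgeR (0 at an unadjusted p under 0.05, 0 called by DESeq2), and they had few counts (*Hoxa5*, mean 31.2 per animal).

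Nuclear genes of the respiratory chain had 12 and 8 calls of 30 (6 and 10 after centring, 4 and 13 under TMM), with the complex I subunits *Ndufb2* at 76.4% ± 1.52 and *Ndufs5* at 40.6% ± 0.882. Only 8 of 77 cytosolic ribosomal protein genes were in the hybrid table, though 74 had at least 1 TPM in the parental brains. Of the 8, 1 and 4 were called (0 and 5 under TMM). *Rpl4* had a share of 22.3% ± 1.03 while *P. polionotus* brains had more of it (0.33, limma adjusted p = 0.002). *Rpl3* was at 52.6% ± 0.864, and its log2 difference of 0.15 was -0.03 under TMM. Ribosomal genes have many near-identical pseudogenes that can share their reads. Enzymes of xenobiotic, redox and lipid metabolism had 8 and 9 calls of 28 (6 and 11 under TMM). The quinone reductase *Nqo1* was at 77.5% ± 3.46 and higher in *P. polionotus* brains (1.23), and the glutathione peroxidase *Gpx3* was at 29.3% ± 2.53 and lower there (-0.23).

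**Figure D3:**
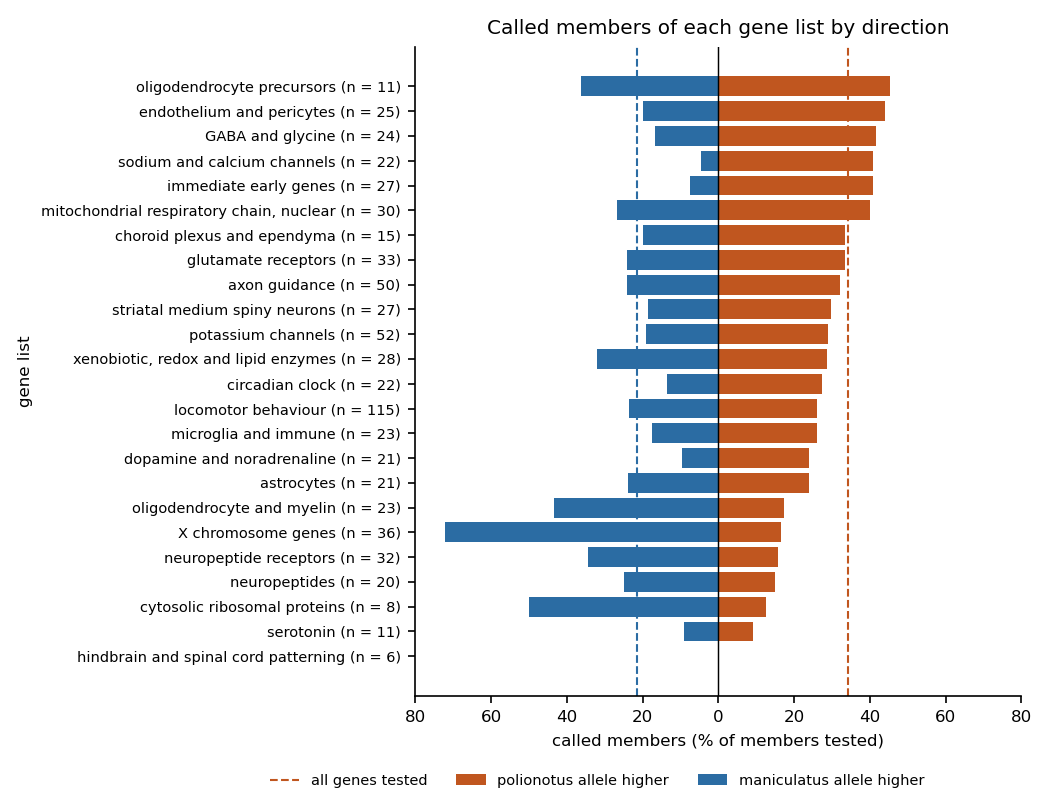
Percent of the measured members of each gene list (vertical axis, with the number measured) called with the polionotus allele higher (orange, to the right) or the maniculatus allele higher (blue, to the left). Dashed lines give the same over all genes tested, 34.2% and 21.5%; X genes reach furthest to the left, and immediate early and sodium and calcium channel genes have few calls on the left under this scaling (7 and 6 under TMM).

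The labels give the hybrids as males, which carry 1 X. Of 453 X genes with at least 1 TPM in the parental brains, 32 (7.06%) were in the hybrid table, against 9205 of 12070 autosomal genes (76.3%). With those under 1 TPM or absent from the parental table, 36 X genes were measured. They had a median share of 16.5%, and 16 were under 10% while 12 were over 40%. Every count in the hybrid table was at least 2, so X genes with no counts on 1 allele are absent. These shares therefore describe only the X genes that remained. Calls numbered 6 with the polionotus allele higher and 26 with the maniculatus allele higher. *Usp9x*, a deubiquitinase (3.01% ± 0.434), and *Pja1*, a ubiquitin ligase of neurons (8.89% ± 0.669), were on the maniculatus side in all 6 animals. *Thoc2*, an mRNA export factor (75.5% ± 1.15), and *Nap1l3* (67.5% ± 1.34) were on the polionotus side in all 6. The X assignment came from an assembly whose relation to the build of the files is unknown, and how near-identical copies elsewhere bear on these shares was not tested.

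Of 32 genes listed as expressed from the maternal copy in the mouse, 3 were in the hybrid table. All 3 lie near each other on chromosome 20 of that assembly. *Ago2*, the Argonaute slicer, had a share of 7.18% ± 1.22 and its neighbour *Trappc9*, a trafficking subunit, 11.9% ± 1.06, both with all 6 animals on the maniculatus side (log2 differences -3.68 and -2.89). *Chrac1*, a chromatin accessibility subunit, had 47.8% ± 2.22 and was not called (edgeR adjusted p = 0.367; 0.0201 under TMM). In the parental brains *Ago2* was higher in *P. polionotus*, opposite to its allele difference (0.16 on the log2(TPM + 1) scale, limma adjusted p = 0.032), and *Trappc9* was lower (-0.15, adjusted p = 0.017). None of 33 genes listed as paternally expressed and no gene of the mitochondrial genome was among the rows used here.

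The parental brains, tested for 14366 genes, show how allele and species differences fell together. They are other animals, and the values are TPM rather than counts. A species difference was called in 52.4% of them (32.6% higher and 19.8% lower in *P. polionotus*, or 4688 and 2841 genes; quantile normalisation made this 3826 and 3857), and in 5192 (52.1%) of the 9973 genes matched to the hybrid table. Of 5526 matched genes with an allele call, 3196 had a species call too. The directions were the same in 2641 of these (82.6%; 79.2% of 3265 with centred alleles and quantile-normalised TPM) and opposite in 555. The same-direction genes were 47.8% of the allele calls and 50.9% of the species calls. A further 2330 genes had an allele call alone, 1996 a species call alone and 2451 neither. Across genes, which are not independent replicates, Spearman's rho was 0.36 and Pearson's r 0.31.

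A small species difference was less common among genes with a large allele difference than among all matched genes. Among the 455 matched genes with an allele difference over 2 on the log2 scale, 252 (55.4%) had a species difference within 0.25 on the log2(TPM + 1) scale, as did 64.3% of all matched genes, and 46 (10.1%) had a called species difference over 1 in the same direction. A called species difference over 1 in either direction was found in 215 (2.16%) of all matched genes. Read the other way, 164 of 215 genes with a species difference over 1 (76.3%) had an allele call in the same direction and 11 (5.12%) in the opposite one. For the 136 of them higher in *P. polionotus* the median species difference was 1.24 and the median allele difference 1.26. For the 79 lower the medians were -1.27 and -0.84.

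Genes with the largest species difference and the same allele direction included *Krt20*, a keratin, with 21.2 ± 2.58 against 1.09 ± 0.980 TPM (SD, n = 6 each) and polionotus shares of 93.3% to 97.9%. *Tnni3*, the cardiac form of troponin I, had 279 ± 211 TPM in *P. polionotus* (SD, n = 6; up to 470 TPM) and 7.96 ± 1.54 TPM in *P. maniculatus* (SD, n = 6; up to 10.2 TPM), and the lowest polionotus library lay within the maniculatus range. Its share was 97.5% to 98.8% in 5 animals and 55.6% in burrowing replicate 2 (log2 difference 5.09, or 5.59 without that animal). *Dkkl1* had shares of 80.5% to 96.1%. *Lgals12*, a galectin, had 99.0% to 99.3% in 4 animals and 65.1% and 66.5% in burrowing replicate 1 and control replicate 1. Its call was lost without burrowing replicate 2, burrowing replicate 3, control replicate 2 or control replicate 3 (edgeR adjusted p = 0.064 to 0.071).

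On the maniculatus side were *Slc27a5*, a bile acid ligase of the fatty acid transporter family (0.712 ± 0.183 against 13.8 ± 2.16 TPM; share 6.82% ± 2.91), *Slc43a3*, a purine base transporter (7.81% ± 2.82), *Haus1*, a subunit of the spindle complex augmin (12.7% ± 1.59), and *Shbg*, sex hormone-binding globulin (18.5% to 23.8%; SD, n = 6 where given). Opposite directions were found in *Apoc1*, an apolipoprotein with 54.0 ± 18.2 TPM in *P. polionotus*, 265 ± 27.0 TPM in *P. maniculatus* (SD, n = 6 each) and a polionotus share of 54.5% to 70.3%. *Cdk10*, a cyclin-dependent kinase, was also lower in *P. polionotus* (-1.22) with shares of 56.9% to 66.9%. *Slc5a2*, a glucose transporter, was higher there (1.54) with shares of 33.5% to 43.3%, as was *Thnsl2* (1.23) with shares of 41.7% to 50.0%. The allele call of *Thnsl2* was lost without burrowing replicate 3 or control replicate 3 (edgeR adjusted p = 0.053 and 0.057). It was also lost when the animal was not used as a block (edgeR adjusted p = 0.311).

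**Figure D4:**
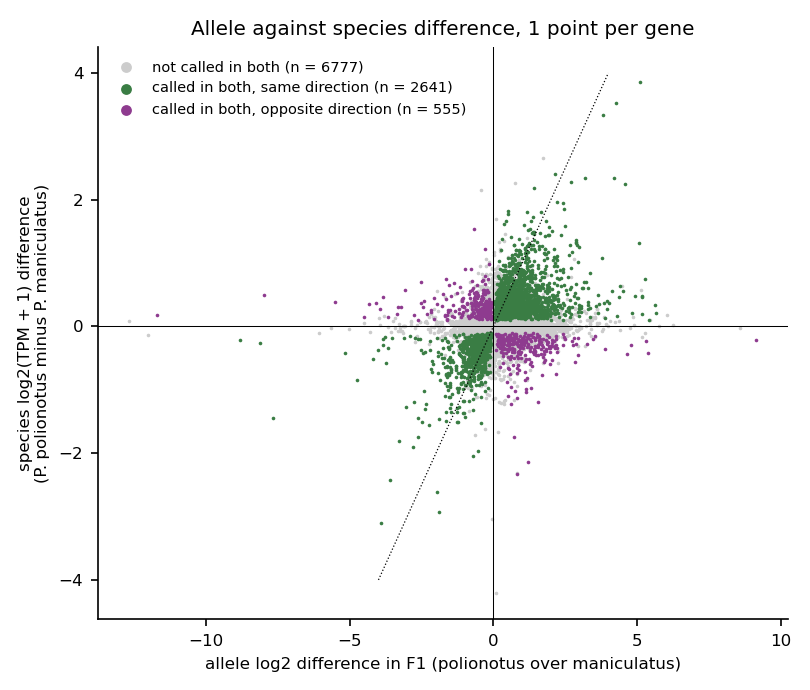
Allele difference in F1 brains (horizontal axis, log2 polionotus over maniculatus) against the species difference in parental brains (vertical axis, log2(TPM + 1), *P. polionotus* minus *P. maniculatus*) for 9973 matched genes, 1 point each. Green points are called in both with the same direction (2641) and purple points in both with opposite directions (555). The dotted line marks equal differences. Of the 455 called genes with an allele difference over 2, 55.4% had a species difference within 0.25, against 64.3% of all matched genes.

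Neighbouring genes tended to share a direction. Of 3317 pairs of adjacent measured genes that were both called, 67.4% had the same direction (66.8% after centring). The share was 63.7% for genes 5 places apart, 58.5% for 20 and 53.4% for 100. Overlapping genes can share reads, and their part in the closest pairs was not tested. Among autosomes the median share over genes ran from 48.5% on chromosome 12, where all 6 animals were between 48.2% and 48.8%, to 58.9% on chromosome 17. Chromosome 17 split the animals across trials. Burrowing replicate 1, control replicate 1 and control replicate 2 had medians of 60.8%, 60.9% and 60.5%, and the other 3 animals 51.8%, 53.0% and 52.3%. The 3 with the higher medians carry consecutive animal numbers in the labels, and the other 3 are named outside that run; what these numbers stand for was not given in the sources used here.

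**Figure D5:**
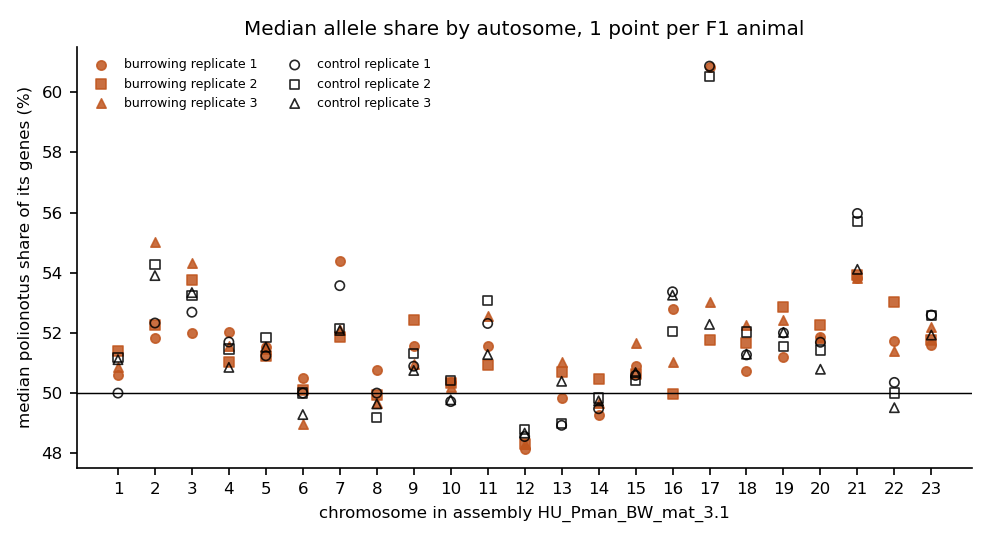
Median polionotus share (vertical axis, percent) over the measured genes of each autosome (horizontal axis), 1 point per F1 animal; the vertical axis does not start at 0. On chromosome 17, 3 animals from both trials lie at 60.5% to 60.9% and the other 3 at 51.8% to 53.0%.

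Allele differences were largely shared by the trials. Among burrowing animals 4436 genes were called (37.2%) and among control animals 4471 (37.5%). Of these, 3663 were called in both, which is 82.6% of the burrowing and 81.9% of the control calls, and 3655 of them had the same direction. The difference itself, tested as an allele by trial term, passed in 27 genes (0.226%). An unadjusted p under 0.05 was found in 266 of 11928 genes, fewer than the 1 in 20 that chance gives. Among the 27, the polionotus share was higher after burrowing in 26 (0.218%) and lower in 1 (0.00838%). This split became 30 and 43 without control replicate 3 and 39 and 21 without burrowing replicate 1. *Akap8l*, a nuclear anchoring protein, was at 90.1%, 91.0% and 90.6% in the burrowing animals and at 45.2%, 48.4% and 48.7% in the control animals. Of the 22 such genes placed on the assembly, 16 lay on chromosome 22, which held 305 of all 10155 placed genes. An allele term per replicate number, an alternative chosen after seeing the data, called 2 genes, both among the 27. Without single animals the count was 10 (control replicate 2) to 73 (control replicate 3), with 60 without burrowing replicate 1 and 43 without burrowing replicate 3. Of the 27 genes, 10 to 20 were called again when a single animal was left out. Whether the animals of a trial shared a litter was not given in the sources used here.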

How the data were processed

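Whole-brain RNA was sequenced from 6 F1 hybrids and 12 parental animals. Reads were aligned with STAR 2.4.2a, per the submitters' processing notes. How reads were assigned to alleles, the genome build and how TPM were computed were not given in the sources used here. Per the labels' titles, libraries form 6 groups. The authors deposited whole-number counts per gene and allele for the hybrids, and TPM per gene for the parental libraries. Every count in the hybrid table was at least 2, so no gene without counts on 1 allele was tested; whether such genes had been removed was not stated. A polionotus share is 1 allele's percent of both, so reads that fit both alleles are not in it. A row without a gene name (0.789% to 2.48% of the TPM of a library) was left out. Dates had replaced 19 gene names in the count table and 27 in the TPM table; these rows were tested and not named. RefSeq symbols of assembly HU_Pman_BW_mat_3.1 matched 10155 genes (85.1%) and gave chromosomes and neighbours only.

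Allele counts were tested in R 4.3.3 with edgeR 4.0.16 (quasi-likelihood F test, animal as block, library size the sum of both alleles, no further scaling). Parental log2(TPM + 1) values (minimum mean 1 TPM) were tested with limma 3.58.1, which understates changes of low genes. Tests were two-sided, adjusted by Benjamini-Hochberg over all genes and called under 0.05. The edgeR test was tried on simulated counts with 100 genes changed 1.5-fold and 100 changed 2-fold. It recovered 13% and 62% of them, and called 3 of 11728 unchanged genes. The pass mark of this check was lowered after a first run. Far fewer genes were changed than were called in the real data, which makes the adjustment stricter, so these rates need not hold there. A gene not called is not shown to have equal alleles. Alternatives were TMM scaling, median centring, DESeq2 1.42.0, limma on log2 allele ratios (pseudocount 1), a minimum of 200 counts, no filter, no block, other TPM pseudocounts and leaving out each animal. P-values measure the spread between these animals only. Errors after ± are SD over 6 animals or libraries.

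Named genes were the 8 largest called differences per direction, a preset list, the member with the smallest p per list and direction, the X and imprinted members with the most counts, and the 4 largest species differences per class. Some genes that these rules named are not reported here. The members, lists and rules were chosen with earlier results of these data known. The further examples *Crhr1*, *Oxtr*, *Oprl1*, *Gad2*, *Nr4a1*, *Fos*, *Egr1*, *Cry2*, *Mobp*, *Cldn11*, *Cnr1*, *Grin1*, *Rgs9*, *Rasd2*, *Vwf*, *Sncg*, *Atp2b2*, *Akap8l*, *Hoxa5* and the GABA-A subunits were chosen after their values were seen.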

Additional observations from a re-analysis of the deposited data

Results flagged for a closer look

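In 17 of 107 groups of 6 animals (106 named genes and the share of all counts) the highest or lowest animal stood apart by Dixon's criterion. Chance gives about 1 in 20. Of the 17, 11 concerned burrowing replicate 2.

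Burrowing replicate 2 had a share of 53.4% for *Timm10* (up to 99.5% in the other 5 animals), 55.6% for *Tnni3* (97.5% to 98.8%) and 58.3% for *Nts* (85.4% to 87.7%), where the other animals were strongly biased. It had smaller departures at 36.7% for *Kcnip3* (25.1% to 29.0%), 64.2% for *Grin1* (55.9% to 58.5%), 77.3% for *Cry2* (70.5% to 72.7%) and 76.4% for *Rasd2* (69.5% to 71.4%). It lay just outside the others at 99.1% for *Cacng7* (97.2% to 97.4%), 98.6% for *Maneal* (97.1% to 97.6%), 82.1% for *Scn8a* (80.2% to 80.8%) and 24.3% for *Rpl4* (21.4% to 22.4%). In none of these genes did leaving it out end the call or turn the direction.

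Burrowing replicate 1 had the highest share of all counts, 53.1%, and stood apart for *Dnajc12* at 0.856% (0.294% to 0.467% in the others) and for *Gria1* at 41.5% (44.4% to 45.9%). Control replicate 2 had 23.3% for *Avp* (43.8% to 51.1%) and 41.9% for *Pdyn* (54.8% to 60.2%). Burrowing replicate 3 had 85.3% for *Slc6a3* (44.1% to 56.3%).

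The allele by trial term passed the edgeR test in 27 genes, and in 2 to 73 genes under the alternatives.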

How the results depend on the processing

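Over both trials, the number of called genes stayed within 1.5 times of 6641 under all 14 alternatives, from 4679 with no replicate block to 7279 with DESeq2, and 6607 without X genes, an alternative chosen after seeing the data. The balance of directions was reversed by TMM scaling. After burrowing, 2687 genes were called with no replicate block and 2910 to 4033 without single animals; after control, 2707 and 2865 to 4545. The allele by trial term gave 60 genes with DESeq2, 16 with no replicate block, 2 with the added replicate block and 10 to 73 without single animals. The cause of these changes was not tested, beyond the smaller number of animals. The share of all counts was 52.7% to 52.8% without single animals, where p cannot go below 0.0625. Centring gave 4 calls in the dopamine and noradrenaline list, all among the 7. TMM reversed the uncalled differences of *Oxt* (-0.0097), *Tac1* (-0.10) and *Drd1* (-0.13; -0.023 after centring) and that of *Rpl3* (-0.031).

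Of 1468 alternative values of 106 named genes, 1423 kept direction and side of the threshold, 38 lost and 2 gained a call and 5 reversed; 15 genes lost their call with no block. The alleles of an animal are paired by origin, and their deviations correlated by -0.124 to 0.365 within an animal. Parental libraries share only a replicate number (correlations -0.119 to 0.0989), and that replicate block gave 7080 species calls against 7529. Shares near 0% or 100% rest on few counts of the rarer allele.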
